A study of Mus musculus with 6 samples.

Results

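The genes described here are 40 textbook cell cycle genes, measured by RNA-seq in cultured mouse kidney cells with and without siRNA against Prune2. They were chosen by symbol from the deposited table of 22274 genes and split by phase. The 15 G1/S genes act in the licensing and copying of DNA (Mcm2 to Mcm7, Cdc6, Cdt1, Pcna), in its nucleotide supply (Tyms, Rrm1, Rrm2) and in the decision to start S phase (Ccne1, Ccne2, E2f1). The 25 other genes, called G2/M here, act mostly in mitosis, although Mki67, Top2a and Ccna2 are already present in S phase. All 40 were found, Cenpf under the capitalised symbol CENPF, and all 40 passed the filter on low counts.

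The samples are 6 libraries of cells labelled as primary renal fibroblasts from wild-type mice, and every library comes from cells exposed for 48 h to TGF-β, a profibrotic cytokine (5 ng/ml). Control libraries 1 to 3 received a scrambled siRNA, and Prune2 siRNA libraries 1 to 3 received siRNA against Prune2. The comparison asked what Prune2 depletion changes in TGF-β-treated cells; cells without TGF-β were not analysed here. The labels do not say whether replicates were separate cultures, so the p-values rest on library-to-library spread that may be purely technical.

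Cells that leave quiescence switch on the G1/S genes through the E2F transcription factors, which are held back by the retinoblastoma protein until cyclin-dependent kinases phosphorylate it. The G2/M genes follow later, driven by the MuvB complex with B-Myb and FoxM1, which reads a promoter element named CHR, often beside CCAAT boxes bound by NF-Y. In cultured fibroblasts and kidney epithelium, the summed level of such transcripts is widely used as a readout of how many cells are cycling.

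Library totals ran from 20075265 to 23234797 counts. Prune2, the targeted gene, was at 6.49, 7.85 and 6.52 CPM in control libraries 1 to 3 and at 3.78, 3.19 and 4.44 CPM in the Prune2 siRNA libraries, a partial depletion of 45.2% (log2 fold change -0.87, SE 0.15, adjusted p = 0.000214). CPM are counts scaled to a common library size after TMM scaling (edgeR's correction for library composition). The depletion was weaker in the authors' deposited FPKM (fragments scaled by transcript length and library size). There Prune2 averaged 1.18 in controls and 0.847 with Prune2 siRNA. The authors' deposited log2 fold change was -0.48, with a deposited adjusted p of 0.000249. Markers of the labelled fibroblasts and of tubular epithelium were both present. Among 11 fibroblast markers, Fn1 averaged 26295 CPM in controls, Vim 570 CPM, Col1a1 236 CPM and Col1a2 86 CPM, while Thy1, Dcn and Lum were under 1 CPM (0.594, 0.281 and 0.0435 CPM). Among 11 tubular epithelial markers, Krt8 averaged 2420 CPM, Krt18 1286 CPM, Cdh1 1055 CPM and Epcam 428 CPM, while the segment markers Aqp1, Slc12a3 and Umod were at 9.6, 1.99 and 1.38 CPM. Leukocyte markers were present, and the edgeR test called 19 of 20 lower with Prune2 siRNA, all but Cd14 (log2 fold change 0.18). Of all tested genes, 5.83% were called lower. The summed level of the leukocyte markers was 230 to 282 CPM in control libraries against 60.3 to 63.8 CPM. None of the 20 was at 0 in all libraries. Of 8 endothelial markers, 6 were called lower (summed level 131 to 142 CPM against 97 to 101 CPM). Of 9 tested fibroblast markers 5 were called lower (summed level 26854 to 27443 CPM against 19220 to 21368 CPM). That sum is mostly Fn1, at a mean of 26295 CPM in controls and 19429 CPM with Prune2 siRNA. Col3a1, Pdgfra, Pdgfrb and Thy1 were not called (log2 fold changes -0.091, -0.039, 0.066 and -0.22). Of 11 tubular epithelial markers 3 were called lower (Krt8, Lrp2 and Aqp1) and 3 higher (Cdh16, Pax8 and Slc12a3), against 4.46% higher of all tested genes. Their summed level was 5581 to 5726 CPM against 5142 to 5580 CPM, mostly Krt8, Krt18 and Cdh1. With each marker's log2 level taken relative to its 6-library mean, the averages went the other way. They were -0.070, -0.048 and -0.037 in control libraries 1 to 3 and 0.012, 0.029 and 0.113 in Prune2 siRNA libraries 1 to 3. The part of these cell types in the cell cycle values was not tested. In bulk libraries, fewer cells of a type and less RNA per cell cannot be told apart.

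Most cell cycle transcripts had slightly lower estimates with Prune2 siRNA, and 3 genes of the G2/M list passed the test. They were the proliferation antigen Mki67, the DNA topoisomerase Top2a and Bub1b, whose kinase-like product acts in the spindle checkpoint. These 3 of 40 (7.5%) were called lower, against 5.83% of all 13248 tested genes, and 0 of 40 were called higher, against 4.46%. Calls in both directions made up 10.3% of all tested genes. A call is an adjusted p (Benjamini-Hochberg, over all tested genes) under 0.05 in the quasi-likelihood test of edgeR. None of the 40 was higher at an unadjusted p under 0.05 either (against 9.46% of all tested genes), and 10 were lower (25%, against 10.6% of all tested genes). The DESeq2 test called 1 member lower and 0 higher, and limma-voom 2 and 0. Without control library 2 or Prune2 siRNA library 2, edgeR called 1 member lower.

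The differences were small and of the same sign for most members. The log2 fold change, Prune2 siRNA over control, was below 0 for 35 of 40 members (87.5%), against 48.3% of all tested genes. Its median was -0.15 over the 25 G2/M genes and -0.084 over the 15 G1/S genes, against 0.0042 over all tested genes. The middle of the range, from the lower to the upper quartile, was -0.20 to -0.085 for G2/M genes, -0.14 to -0.053 for G1/S genes and -0.076 to 0.077 for all tested genes. The groups did not overlap for 12 members (30%), all lower with Prune2 siRNA, against 12.4% of all tested genes; 0 members were higher without overlap, against 11.9%. No test of either list, or of the difference between them, was made.

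**Figure D1:**
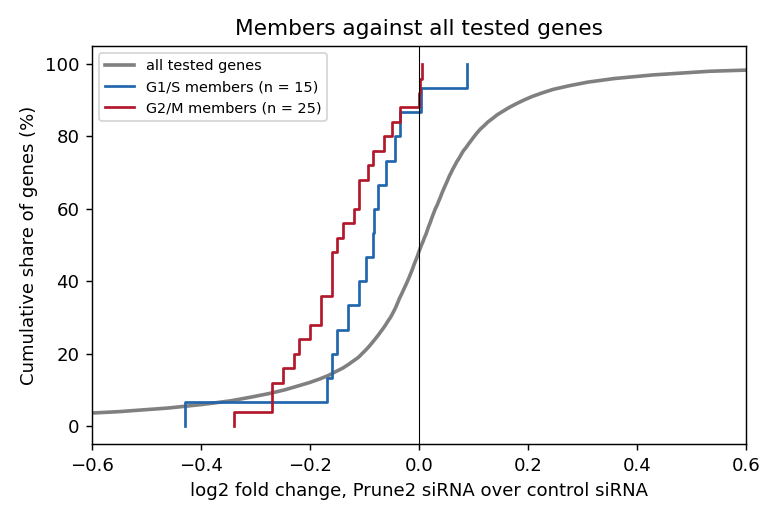
Cumulative share of genes (y axis, %) against the log2 fold change, Prune2 siRNA over control siRNA (x axis), for the 15 G1/S members, the 25 G2/M members and all 13248 tested genes. Both member curves lie left of the curve of all tested genes around their medians of -0.084 and -0.15, and few members reach positive values.

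Mki67, which encodes the Ki-67 protein that coats mitotic chromosomes, had the lowest adjusted p among the members. Mki67 stood at 61.5, 57.4 and 58 CPM in control libraries 1 to 3 and at 42.5, 52.2 and 45.4 CPM in Prune2 siRNA libraries 1 to 3. Every Prune2 siRNA library lay below every control library, and library 2 lay closest to the controls. Mki67 fell by 0.34 on the log2 scale (SE 0.061, adjusted p = 0.000349), or 20.7%. Its call held in each of the 6 fits that leave out a library (adjusted p 1.82e-05 to 0.00479) and was lost with limma on log2(FPKM + 1), where the adjusted p was 0.125. The gene (ENSMUSG00000031004) spans 135689784 to 135716361 of chromosome 7, minus strand (GRCm38, GENCODE M21).

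Top2a, the topoisomerase that untangles sister chromatids, was at 52.9, 54.4 and 56.8 CPM in controls and at 48, 46.8 and 49.9 CPM with Prune2 siRNA. The groups did not overlap, with a gap of a few CPM between the nearest libraries. Top2a fell by 0.18 (SE 0.051, adjusted p = 0.0197), or 11.9%. The adjusted p of Top2a rose past the threshold on leaving out control library 2 (0.0546) or 3 (0.105) or Prune2 siRNA library 1 (0.0552) or 2 (0.0841), and the DESeq2 test gave 0.0605. Top2a (ENSMUSG00000020914) spans 98992943 to 99024189 of chromosome 11, minus strand.

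Bub1b encodes BubR1, the kinase-like checkpoint protein that delays anaphase until every kinetochore is attached. Bub1b was at 14, 14.3 and 15.2 CPM in controls and at 12.7, 11.5 and 12 CPM with Prune2 siRNA, again without overlap. Bub1b fell by 0.27 (SE 0.087, adjusted p = 0.0491), or 17%, just inside the threshold. No fit that leaves out a library called Bub1b: the adjusted p was 0.0627, 0.094 and 0.165 without control library 1, 2 or 3, and 0.0505, 0.168 and 0.127 without Prune2 siRNA library 1, 2 or 3. The DESeq2 test gave 0.2 and limma-voom 0.0518. Bub1b (ENSMUSG00000040084) spans 118598211 to 118641591 of chromosome 2, plus strand.

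The promoters of these genes are shown for their phase-specific elements, beside those of Rrm2 and Rrm1, the G1/S members nearest to the threshold after Ccne2, which had no sequence. Each window runs from 250 bases before to 50 bases from the RefSeq start site on (GRCm38.p6), 5′ to 3′ on the gene's own strand. Capitals mark 3 motifs, searched on both strands. CHR was read as TTTGAA and also as TTCGAA, and the NF-Y box was CCAAT. The E2F core was read as TTCCCGC, and in addition as TTGGCGC, and lastly as the letters TTCGCGC. The windows are chr7:135716330-135716629 for Mki67 (minus strand), chr11:99024140-99024439 for Top2a (minus), chr2:118597961-118598260 for Bub1b (plus), chr12:24708004-24708303 for Rrm2 (plus) and chr7:102441445-102441744 for Rrm1 (plus).
Mki67: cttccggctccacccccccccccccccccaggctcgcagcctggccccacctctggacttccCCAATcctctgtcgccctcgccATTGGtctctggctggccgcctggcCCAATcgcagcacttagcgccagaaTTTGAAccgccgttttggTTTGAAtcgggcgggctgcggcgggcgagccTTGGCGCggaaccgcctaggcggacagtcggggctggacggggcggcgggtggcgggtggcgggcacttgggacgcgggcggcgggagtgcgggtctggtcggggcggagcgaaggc
Top2a: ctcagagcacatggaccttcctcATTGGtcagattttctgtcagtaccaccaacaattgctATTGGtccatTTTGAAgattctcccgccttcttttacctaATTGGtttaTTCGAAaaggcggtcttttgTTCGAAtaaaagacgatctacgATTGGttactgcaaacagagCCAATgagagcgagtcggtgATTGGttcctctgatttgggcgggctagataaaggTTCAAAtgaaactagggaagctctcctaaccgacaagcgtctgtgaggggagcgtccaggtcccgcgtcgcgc
Bub1b: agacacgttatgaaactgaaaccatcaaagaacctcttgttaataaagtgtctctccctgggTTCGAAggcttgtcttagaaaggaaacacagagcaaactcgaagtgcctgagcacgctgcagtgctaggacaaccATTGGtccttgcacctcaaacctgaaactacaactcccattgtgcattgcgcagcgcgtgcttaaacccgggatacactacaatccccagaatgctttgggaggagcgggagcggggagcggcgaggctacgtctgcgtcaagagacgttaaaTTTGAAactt
Rrm2: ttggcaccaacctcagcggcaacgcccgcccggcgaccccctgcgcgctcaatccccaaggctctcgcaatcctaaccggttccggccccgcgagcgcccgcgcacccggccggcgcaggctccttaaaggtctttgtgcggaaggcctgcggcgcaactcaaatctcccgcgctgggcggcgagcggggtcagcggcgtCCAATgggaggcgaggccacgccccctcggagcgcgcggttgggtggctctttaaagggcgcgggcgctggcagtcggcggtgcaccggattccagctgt
Rrm1: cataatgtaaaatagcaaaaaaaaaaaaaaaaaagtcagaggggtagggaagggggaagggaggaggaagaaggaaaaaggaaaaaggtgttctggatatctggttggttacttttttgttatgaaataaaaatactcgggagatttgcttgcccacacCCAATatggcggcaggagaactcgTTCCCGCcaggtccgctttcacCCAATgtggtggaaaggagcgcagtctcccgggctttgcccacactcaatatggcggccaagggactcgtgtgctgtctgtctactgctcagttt
Mki67 carries CHR letters 116 and 98 bases before its start, downstream of 3 CCAAT matches, and an E2F core match 67 bases before it. Top2a has 4 CHR and 6 CCAAT matches, and Bub1b has 2 CHR matches, of which 1 lies 40 bases past the start, and 1 CCAAT. Rrm2 and Rrm1 have no CHR letters in these windows, while Rrm1 has an E2F core match 67 bases before its start.

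Over the members, CHR letters went with the G2/M class and E2F core letters with the G1/S class. RefSeq windows were matched for 33 of 40 members (35 windows, since Mcm7 and Prc1 have 2 start sites). Mcm4, Ccne2, Ccna2, Aurkb, Foxm1 and Tpx2 had none. The 21 G2/M windows belong to 20 genes. The 2 windows of Prc1 overlap (chr7:80294201-80294500 and chr7:80294226-80294525), so the same CHR and CCAAT letters are counted in both. Chromosome 18, where Kif20a lies, was left out of the member search but not of the windows of all promoters. Kif20a is therefore not counted here, whether or not it has a window. CHR letters were in 17 of 21 G2/M windows (81%) and 2 of 14 G1/S windows (14.3%), against 19.2% of 32817 promoter windows of the same length. All 17 also held CCAAT, a pair found in 7.51% of all windows. CCAAT alone was in 19 of 21 G2/M and 9 of 14 G1/S windows, against 37.4% of all. E2F core letters were in 8 of 14 G1/S windows (57.1%) and 3 of 21 G2/M windows (14.3%), against 8.07% of all. Matches of different motifs overlapped in 2 of the 35 member windows. A match is a description of letters, not of binding, and the expression values played no part in it.

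**Figure D2:**
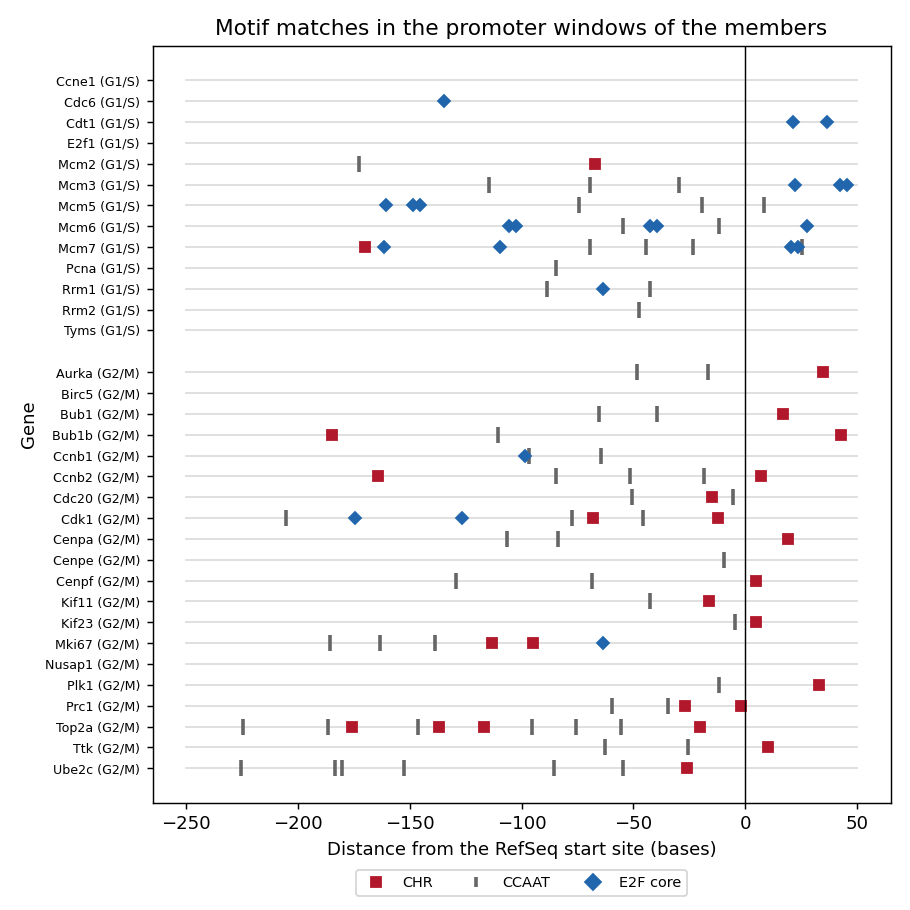
Motif matches in the promoter windows of the 33 members with a matched RefSeq window, by distance from the start site in bases (x axis). Each grey line is a gene, squares are CHR, bars CCAAT and diamonds E2F core. The 2 windows of Mcm7 and of Prc1 are overlaid. CHR squares fill the G2/M rows (17 of 21 windows) and E2F diamonds the upper G1/S rows (8 of 14 windows).

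The A- and B-type cyclins Ccna2, Ccnb1 and Ccnb2 and their kinase Cdk1 had lower estimates with Prune2 siRNA, and none was called. Ccna2, the S and G2 cyclin, was at 21, 21.6 and 21.8 CPM in controls and at 19.6, 19.2 and 16.4 CPM with Prune2 siRNA. The groups did not overlap, but Ccna2 missed the threshold (log2 fold change -0.23, SE 0.077, adjusted p = 0.0651). It passed with no filter on low counts (adjusted p = 0.0437) and without Prune2 siRNA library 1 (0.0425). Ccnb1, a mitotic cyclin, was at 14.2, 14.6 and 13.5 CPM against 13.8, 10.8 and 11 CPM. Prune2 siRNA library 1 lay among the controls for Ccnb1 (log2 fold change -0.25, adjusted p = 0.123), and without it the adjusted p was 0.0167. Ccnb2 had the same layout, with 8.68 CPM in that library and 6.37 and 6.54 CPM in Prune2 siRNA libraries 2 and 3 (log2 fold change -0.20, adjusted p = 0.43). Cdk1 had a log2 fold change of -0.15 (adjusted p = 0.338).

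The mitotic kinases and the degradation machinery did not pass the test. Plk1, which drives centrosome maturation, was at 15, 16.5 and 16.3 CPM against 16.3, 12.5 and 13.5 CPM (log2 fold change -0.18, adjusted p = 0.289). Aurka and Aurkb, the Aurora kinases of the spindle poles and of the centromere, had log2 fold changes of -0.093 and -0.11. The checkpoint kinases Bub1 and Ttk had -0.11 and -0.16, although Bub1b of the same checkpoint was called. Cdc20 and Ube2c, which turn on the anaphase-promoting complex and supply it with ubiquitin, stood at 0.0016 (-0.0074 with upper-quartile scaling) and -0.036. Ube2c spread more widely within the Prune2 siRNA group (15.8, 11.8 and 17 CPM) than between groups. Birc5 (survivin), the partner of Aurkb, was at 0.0055, with a 95% interval of -0.30 to 0.31.

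Centromere, spindle and cytokinesis genes gave values of mixed size. Cenpa, the centromeric histone, was at 6.4, 6 and 7.04 CPM in control libraries against 5.71, 5.02 and 5.38 CPM, without overlap but short of a call (log2 fold change -0.27, adjusted p = 0.25). Cenpf, a kinetochore protein, also had separated groups (-0.14, adjusted p = 0.41), whereas the kinetochore motor Cenpe was at -0.05. Kif11, the motor that pushes spindle poles apart, was at -0.16 with separated groups, and Kif20a and Kif23, motors of cytokinesis, were at -0.12 and 0.00049 (the sign of Kif23 turns with DESeq2 size factors, -0.0008). The microtubule-binding proteins Prc1, Nusap1 and Tpx2 were at -0.16, -0.22 and -0.085. Prc1 passed only without control library 1 among the fits run (adjusted p = 0.0415; 0.177 with all libraries). Foxm1, the transcription factor of the G2/M programme, was at 22.9, 18.9 and 21.3 CPM against 19.3, 20.7 and 20.3 CPM, with wide overlap (log2 fold change -0.064, adjusted p = 0.729).

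No G1/S gene passed the edgeR test: 0 of 15 were called in either direction, against 10.3% of all tested genes, and DESeq2 and limma-voom each called 0. At an unadjusted p under 0.05, 3 were lower (Ccne2, Rrm1 and Rrm2), 20% of the list against 10.6% of all tested genes, and 0 were higher. Without control library 3 or Prune2 siRNA library 1, edgeR called 1, Rrm1. Ccne2, 1 of the 2 E-type cyclins that activate Cdk2 for S-phase entry, had the lowest estimate of all 40 members. It was at 4.83, 5.55 and 4.87 CPM in controls and at 4.11, 3.27 and 3.93 CPM with Prune2 siRNA, without overlap (log2 fold change -0.43, SE 0.16, adjusted p = 0.087). Its relative Ccne1 was at 6.79, 7.55 and 6.87 CPM against 7.36, 7.37 and 7.77 CPM, with overlapping groups and the highest estimate of the members (0.088, SE 0.12, adjusted p = 0.763). The difference between the E-type cyclins was not tested. E2f1, the transcription factor of the G1/S programme, was at -0.061 with a 95% interval of -0.41 to 0.28.

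Genes of nucleotide supply came nearest to the threshold among the abundant G1/S genes. Rrm2, the small subunit of ribonucleotide reductase that is made in S phase, was at 35, 33.5 and 33 CPM in controls and at 30.9, 27.6 and 31.6 CPM with Prune2 siRNA. The groups of Rrm2 did not overlap (log2 fold change -0.17, SE 0.063, adjusted p = 0.0954), and no alternative called it. Rrm1, the large subunit, was at 62.4, 65.1 and 56.4 CPM against 60.7, 52.8 and 54.5 CPM, with overlap (-0.13, adjusted p = 0.198). Rrm1 passed without control library 3 (adjusted p = 0.0402) or Prune2 siRNA library 1 (0.0444). Tyms, thymidylate synthase, was at -0.15 (adjusted p = 0.436).

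The replicative helicase had no called subunit. The 6 helicase subunits Mcm2, Mcm3, Mcm4, Mcm5, Mcm6 and Mcm7 had log2 fold changes of -0.044, -0.098, -0.082, -0.084, -0.036 and 0.003. Their 95% intervals all included 0: they ran from -0.15 to 0.064 for Mcm2, -0.23 to 0.036 for Mcm3, -0.20 to 0.036 for Mcm4, -0.25 to 0.082 for Mcm5, -0.13 to 0.06 for Mcm6 and -0.096 to 0.10 for Mcm7. The helicase loaders Cdc6 and Cdt1, at lower counts, were at -0.16 and -0.11, with intervals of -0.44 to 0.12 and -0.35 to 0.14. Pcna, the sliding clamp of DNA polymerase, was at 46.8, 46.6 and 46.8 CPM in controls and at 44, 44.3 and 44.8 CPM with Prune2 siRNA. Pcna thus had separated groups at a difference of 5.12% (log2 fold change -0.076, SE 0.051, adjusted p = 0.459). The G1/S genes without overlap were Mcm5, Ccne2, Cdc6, Pcna and Rrm2, and for Mcm5 the nearest libraries of the groups both round to 15.7 CPM.

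**Figure D3:**
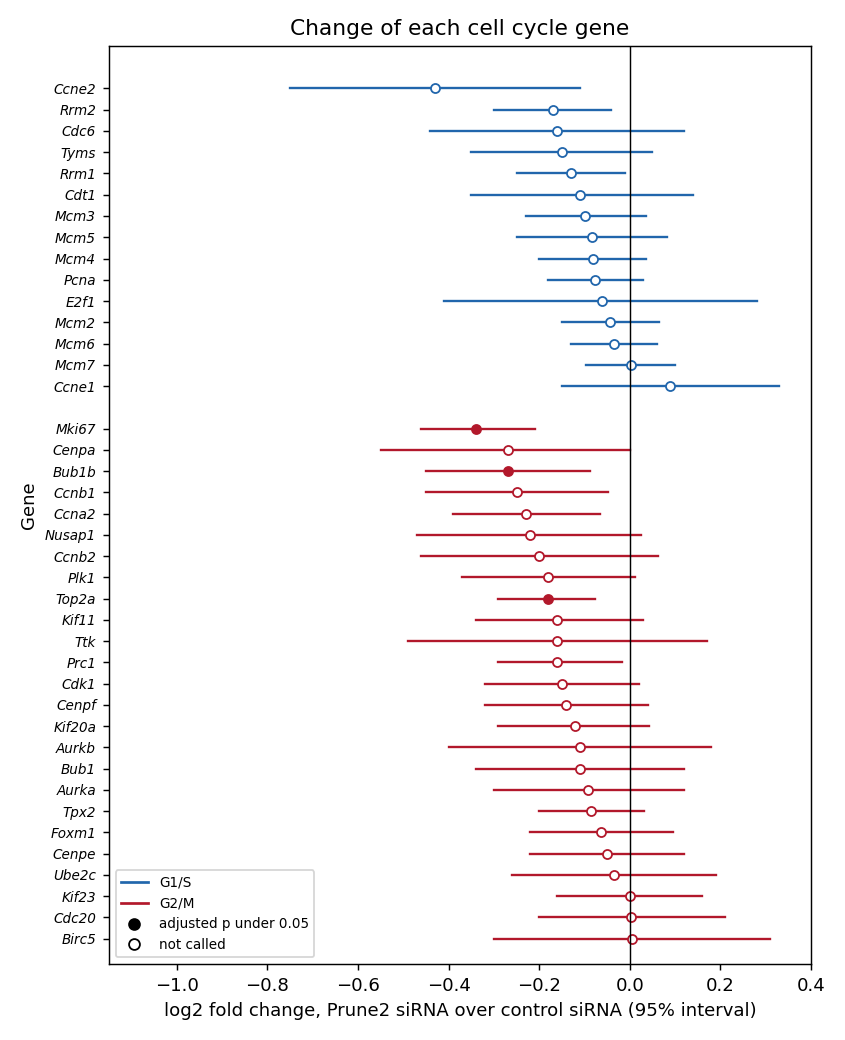
Log2 fold change, Prune2 siRNA over control siRNA, of each member with its 95% interval (x axis), grouped by phase and ordered by size; filled circles are called by edgeR and open circles are not. Only Mki67, Bub1b and Top2a are filled, and Ccne2 has the lowest estimate with an interval of -0.75 to -0.11.

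The precision sets a bound on what could have been missed, given the spread of these libraries, which may be purely technical. The 95% interval, not adjusted for the number of genes, stayed inside a 1.5-fold change either way (0.58 on the log2 scale) for 39 of 40 members, all but Ccne2, against 80.6% of all tested genes. Standard errors ran from 0.047 for Mcm6, at 80.4 CPM in controls, to 0.17 for E2f1, at 3.77 CPM.

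Libraries of the same group also differed in their level of cell cycle transcripts. Each member's log2 level was taken relative to its own mean over the 6 libraries and averaged over the list. For G2/M genes these averages were 0.050, 0.070 and 0.094 in control libraries 1 to 3 and -0.013, -0.107 and -0.095 in Prune2 siRNA libraries 1 to 3. For G1/S genes they were 0.086, 0.070 and -0.001 against -0.012, -0.095 and -0.048. The groups did not overlap in either list, but Prune2 siRNA library 1 lay nearest to the controls and, for G1/S genes, almost at the level of control library 3. Prune2 siRNA library 2 was the lowest of the 6 for 19 of the 40 members.

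**Figure D4:**
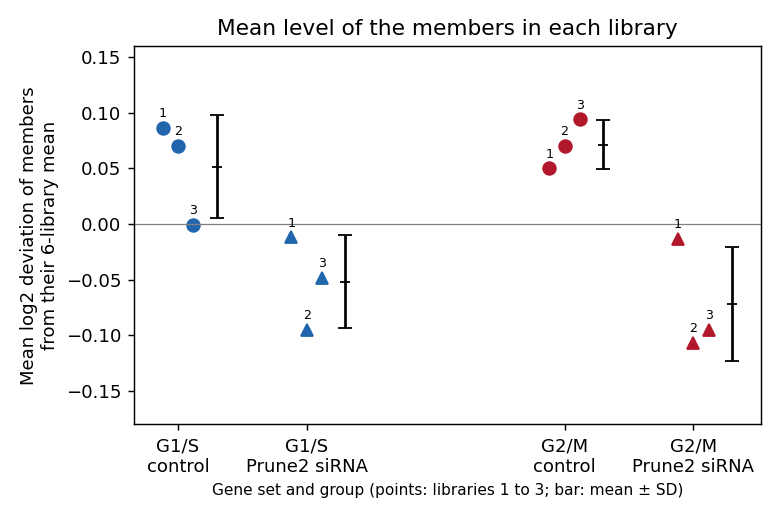
Mean log2 deviation of the 15 G1/S and 25 G2/M members from their 6-library mean (y axis) in each library; points carry the replicate number, and bars are the mean ± SD of 3 libraries. The G2/M averages separate from 0.050 and above in controls to -0.013 and below with Prune2 siRNA, while G1/S control library 3 (-0.001) nearly meets Prune2 siRNA library 1 (-0.012).

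**Figure D5:**
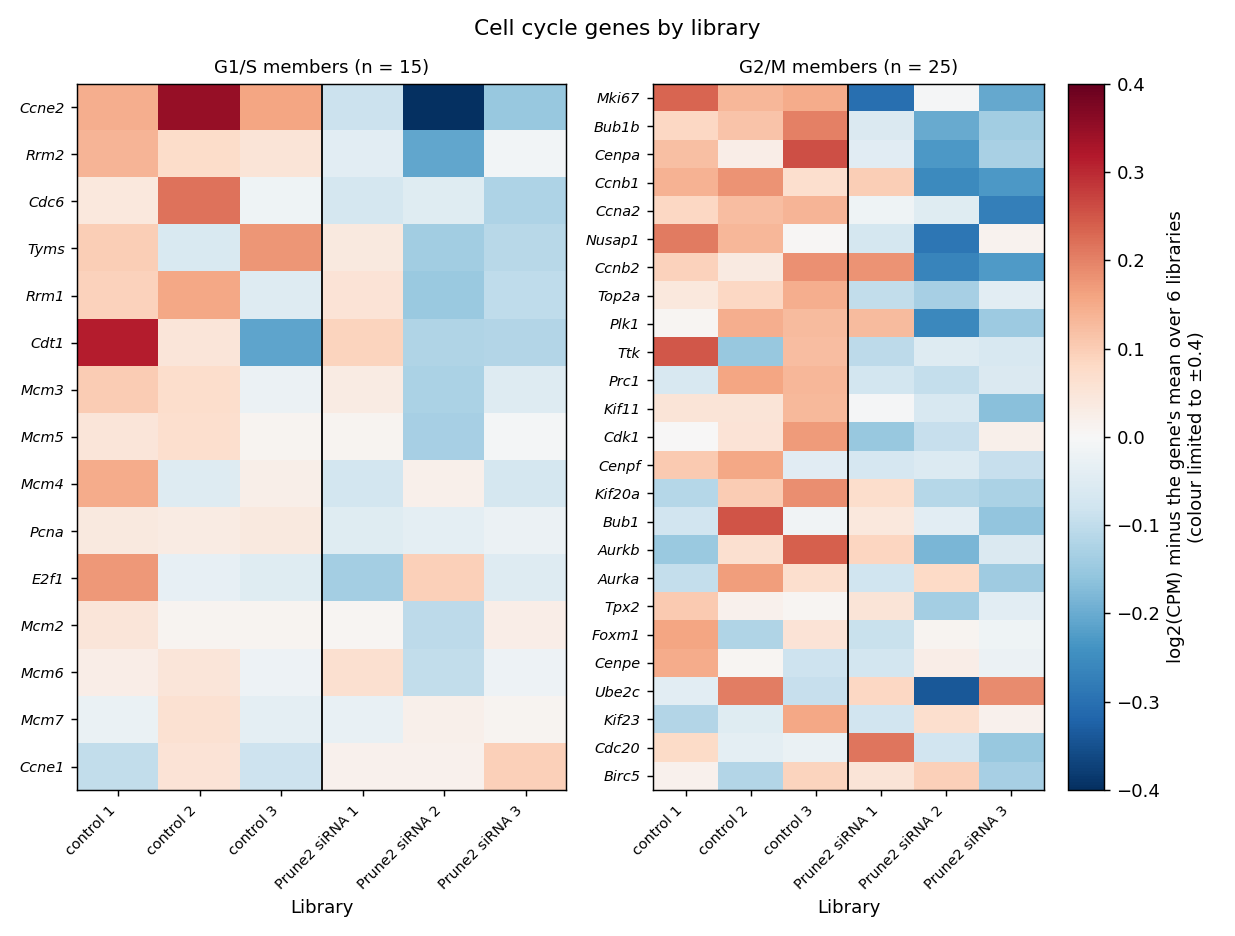
Log2 CPM of each member minus its mean over the 6 libraries (colour), with libraries in columns, G1/S genes on the left and G2/M genes on the right, ordered by fold change. Blue cells gather in Prune2 siRNA libraries 2 and 3. Ccne2 and Mki67 are the top rows, and Mki67 is lowest in Prune2 siRNA library 1 (42.5 CPM). The bottom rows (Ccne1, Mcm7, Cdc20, Kif23 and Birc5) show no split between groups.

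Per transcript length, replication genes were the most abundant members. In the authors' deposited FPKM (fragments scaled by transcript length and library size), Mcm7 averaged 32 ± 3.41 in control libraries, Pcna 30.7 ± 0.0777 and Mcm6 27.4 ± 0.552 (SD, n = 3). Next came Ube2c at 15.7 ± 1.77, Rrm2 at 15.5 ± 0.438 and Rrm1 at 15.5 ± 1.19, which did not differ beyond their spread. At the low end were Ccne2 at 1.73 ± 0.13, Cenpf at 1.72 ± 0.731 and E2f1 at 1.37 ± 0.118. Counts and FPKM of a gene give an effective length, and it differed by over 5 percent between libraries for 16 of 40 members. Cenpf was the most affected, with effective lengths of 9072 ± 3524 bases in controls and 10239 ± 514 bases with Prune2 siRNA (SD, n = 3). The log2 ratio of mean FPKM for Cenpf was -0.48 against -0.14 by counts. In the authors' deposited table, Mki67 was the 1 member with an adjusted p under 0.05 (log2 fold change -0.35, adjusted p = 0.000222), against 4.64% of all genes in that table, and Top2a had 0.0683.

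Outside the 40, the D-type cyclins Ccnd1 and Ccnd2 changed in opposite directions. These cyclins carry growth-factor signals to the retinoblastoma protein early in G1. Ccnd1 was at 432, 418 and 414 CPM in controls and at 512, 473 and 498 CPM with Prune2 siRNA, without overlap. Ccnd1 rose by 17.3% (log2 fold change 0.23, SE 0.037, adjusted p = 6.94e-05). Ccnd2 was at 98.7, 93.8 and 84.6 CPM against 79.1, 74 and 71.8 CPM, and fell by 0.30 (SE 0.052, adjusted p = 0.000194). Both calls held in all 15 alternatives. E2f8, a repressor among the E2F proteins, was at 7.57, 8.4 and 7.43 CPM against 5.05, 4.45 and 6.49 CPM and fell by 0.54 (adjusted p = 0.00992). Its call was lost without control library 2 or Prune2 siRNA library 2 (adjusted p up to 0.0752), and 10 of 15 alternatives kept it. These were the 3 called genes (1 higher, 2 lower) of 18 G1 cyclins, CDKs, RB and E2F genes (against 4.46% higher and 5.83% lower of all tested genes), whose median log2 fold change was -0.023.

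Spindle motors and cytokinesis genes had 4 of 19 called lower and 0 higher (against 5.83% and 4.46% of all tested genes), with a median of -0.092. Kif4, a chromosome-bound kinesin, was at 11.8, 12.6 and 10.7 CPM in controls and at 9.11, 8.38 and 7.65 CPM with Prune2 siRNA, and fell by 0.49 (SE 0.11, adjusted p = 0.00237). Hmmr, a spindle assembly factor, was at 13.8, 14.2 and 12.8 CPM against 10, 9.95 and 10.7 CPM and fell by 0.41 (adjusted p = 0.00318). Both kept their calls in all 6 fits that leave out a library, and each was called in 12 of 15 alternatives. Of the 19 genes, the DESeq2 test called 3 lower, limma-voom 4 and limma on log2(FPKM + 1) 0. The remaining calls, Anln (-0.25) and Cit (-0.38), are named after their values were seen. Anln lost its call without control library 1 or Prune2 siRNA library 3 (adjusted p up to 0.0608). Cit lost it without control library 1 or 2 or Prune2 siRNA library 1 or 3 (up to 0.253).

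The other lists held few calls or none. Of 46 origin, replisome and nucleotide genes, Clspn, an adaptor of the replication checkpoint, was called lower (-0.44, adjusted p = 0.0394). Of 16 condensin, cohesin and separase genes, the condensin subunit Ncapg was called lower (-0.39, adjusted p = 0.0243). Clspn lost its call without control library 1 or 3 or Prune2 siRNA library 2 or 3 (up to 0.208), and Ncapg without control library 2 or 3 or Prune2 siRNA library 2 or 3 (up to 0.126). In each of these 2 lists the DESeq2 test called 0 genes, and limma-voom called 1 lower. The edgeR test called 0 of 27 kinetochore and checkpoint genes, 0 of 7 CDK inhibitors, 0 of 9 mitotic entry regulators and 0 of 6 MuvB and B-Myb genes, and DESeq2 and limma-voom also called 0 in each. At an unadjusted p under 0.05 in edgeR, 4 of the 27 kinetochore genes and 2 of the 7 CDK inhibitors were lower, against 10.6% of all tested genes. Of the 9 mitotic entry regulators 1 was higher, against 9.46%. At that threshold, 24 of the 148 tested genes of all 8 lists were lower and 2 were higher. Over the 8 lists together, 8 of 148 tested genes were called lower and 1 higher, against 5.83% and 4.46% of all tested genes, so the count of lower calls was near the background. Their median log2 fold change was -0.051, against 0.0042 over all tested genes.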

How the data were processed

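RNA from 3 control siRNA and 3 Prune2 siRNA libraries was compared. Per the file headers, the authors deposited for each gene a read count and an FPKM value in every library, the mean FPKM of each group, and their own comparison as a log2 fold change with raw and adjusted p-values. The submitters' processing notes list the builds GRCm38 and mm10. How reads were aligned, counted (with or without strand) and tested by the authors, and how reads shared with gene copies were treated, is not given in the sources used here.

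Of 22274 gene identifiers, 22219 matched GENCODE M21, and members were matched by identifier. edgeR 4.0.16 (R 4.3.3) was run on the deposited counts (TMM, filterByExpr, glmQLFit, glmQLFTest, Benjamini-Hochberg over 13248 genes, threshold 0.05). The standard error is the fold change divided by the root of F. The procedure was tested on simulated data. Libraries of a group differed by more than sampling noise (chi-square per degree of freedom 2.48 to 3.74) and each counts as 1 replicate. Alternatives were DESeq2 1.42.0, limma 3.58.1 (voom, or log2 of FPKM plus 1 or 0.1), other scalings, no filter, a replicate block and leaving out each library. The exact permutation test of 3 against 3 libraries cannot go below 0.1 and was not used. Named genes are all 40 members, Prune2 and, in each other cell cycle list, up to 2 called genes per direction. Members and lists were chosen with earlier results of these data known. Promoters are from RefSeq (GRCm38.p6).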

Additional observations from a re-analysis of the deposited data

How the results depend on the processing

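The medians of both lists and the count of 0 members called higher stayed within their limits under all 15 alternatives. Limma on FPKM called fewer genes in all: 593 with log2(FPKM + 1), 614 with log2(FPKM + 0.1) and 581 with log2(FPKM + 1) over genes with mean FPKM over 1, against 1364. On those scales 0 members were called lower, 0 of them G2/M, and Prune2 had log2 fold changes of -0.24, -0.43 and -0.24 without a call; the cause was not tested. The DESeq2 test called 1 member lower, in G2/M. Leaving out 1 library gave 1 to 4 members called lower, 0 to 1 in G1/S and 1 to 3 in G2/M (1 without control library 2 or 3 or Prune2 siRNA library 2). The replicate block gave 1490 genes, 4 members and 4 G2/M genes, adding Ccna2 (adjusted p = 0.0479). Same-numbered libraries did not deviate together (correlations of 0.031, -0.037 and -0.017), so no pairing by number was seen. These correlations cannot show whether same-numbered libraries were prepared together. Sign changes, none with a call, touched 9 members. With upper-quartile scaling Mcm7 was at -0.0062, Birc5 at -0.0038, Cdc20 at -0.0074 and Kif23 at -0.0088. Cdc20 was at -0.0014 with the replicate block and -0.0088 with limma-voom, and Kif23 at -0.0008 with DESeq2 size factors. On the FPKM scales Birc5 was at -0.0044, -0.0051 and -0.0044 and Kif23 at -0.056, -0.062 and -0.056. Leaving out 1 library gave -0.079 to 0.0037 for Mcm6, -0.018 to 0.031 for Mcm7, -0.24 to 0.029 for Cdt1, -0.13 to 0.0087 for E2f1, -0.05 to 0.072 for Birc5, -0.11 to 0.073 for Cdc20, -0.059 to 0.083 for Kif23, -0.11 to 0.012 for Cenpe and -0.15 to 0.11 for Ube2c. Depth limits the members under about 5 CPM most, where standard errors reach 0.17.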
